A study of Homo sapiens with 6 samples.

Results

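The mRNAs of 9 genes that prepare DNA for replication were examined for their recovery with CELF1, an RNA-binding protein also known as CUGBP1. They were the 6 subunits of the MCM helicase (MCM2, MCM3, MCM4, MCM5, MCM6 and MCM7), the replication factor MCM10, and the licensing factors CDC6 and CDT1. The 9 genes were chosen by name out of 19833 protein-coding genes with an annotated coding transcript. Their members in the data were all listed 20-nt bins whose centre lay in an exon of these genes on the transcript strand. There were 748 such bins out of 816781 in the SK-Mel-103 sample, and 529 out of 780750 and 592 out of 862731 in replicates 1 and 3 of UACC-62.

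The series holds 6 libraries of RNA immunoprecipitation followed by sequencing (RIP-Seq), from which 3 IP lists were analysed, each called by Piranha against the matching input. The IP groups were SK-Mel-103 (replicate 1 only) and UACC-62 (replicates 1 and 3), both established human melanoma cell lines grown in DMEM with fetal bovine serum and with no further treatment stated. Cells were fixed with formaldehyde, lysates were precipitated with an anti-CUGBP1 antibody, and the labels describe the IP as poly A+ RNA and the other libraries as input RNA. The methods differ from these labels. They describe removal of ribosomal RNA from IP and input samples alike and name no poly A selection for RIP-Seq. No precipitation with a control antibody was analysed here. Of 7 melanocyte lineage markers, 3 had listed bins in SK-Mel-103 and 6 in both UACC-62 samples, with 900 input reads in SK-Mel-103 against 15728 and 11980 in UACC-62. PMEL had no listed bin in any sample. The lists held only bins that had passed peak calling, each with its IP count and its input count. Summed over a list, IP counts were 10958459 (SK-Mel-103), 11333805 (UACC-62 replicate 1) and 14436573 (UACC-62 replicate 3), and input counts were 8453517, 10161917 and 8900292. Values of the 3 samples are given in this order throughout.

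MCM2 to MCM7 form a ring that is loaded onto DNA at replication origins in G1 phase and unwinds the double helix in S phase. Loading, called licensing, is carried out by the origin recognition complex together with CDC6 and CDT1, and MCM10 helps to turn the loaded ring into an active helicase. CELF1 is known to bind GU-rich elements (GREs) in the 3′ untranslated region (3′ UTR) of mRNAs, and through them affects mRNA decay and translation.

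Sequences of single 3′ UTR bins are shown first, on the transcript strand. For each gene the bin was taken from those listed in all 3 samples, by the highest IP count in its lowest sample. MCM5 and MCM10 had only 1 such bin each. The build is GRCh37, and capitals mark every UGU, a trinucleotide of GREs. The bins lie at chr3:127341181-127341200 (+), chr6:52128821-52128840 (-), chr22:35820441-35820460 (+), chr2:136598141-136598160 (-), chr7:99690441-99690460 (-), chr10:13251781-13251800 (+) and chr17:38458541-38458560 (+), in the order of the lines. The bins of MCM2, MCM3 and MCM7 are those that exceeded 30 IP reads in every sample, and the bin of CDC6 had more IP over input than the other bins in SK-Mel-103 and UACC-62 replicate 1, but less than that of MCM2 in UACC-62 replicate 3 (a log2 ratio of -0.11 against 0.44).
MCM2: agcugccauugcucccUGUc
MCM3: aauaaacuuagccauuucgu
MCM5: cugggaagUGUgcuuuuggc
MCM6: gUGUagucucuauaaccaau
MCM7: cucuuucucccaugcugcac
MCM10: ugauccugaaaUGUauuuuu
CDC6: gaggaaUGUGUGUauauuua

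The CDC6 bin held 3 overlapping UGUs, the bins of MCM2, MCM5, MCM6 and MCM10 held 1 each, and those of MCM3 and MCM7 held none. The corresponding bin of MCM4, whose sequence is not shown, held 1 UGU and had 27, 19 and 18 IP reads against 95, 107 and 89 input reads. IP reads were 19, 11 and 27 in the MCM5 bin, 24, 19 and 40 in the MCM6 bin and 11, 4 and 6 in the MCM10 bin. The MCM10 bin ranked only 6, 4 and 2 by IP reads among 44, 5 and 11 listed 3′ UTR bins. The MCM3 bin begins with the letters of a polyadenylation signal (AAUAAA) and its centre lies 554 nt after the stop codon in a 3′ UTR of 573 nt. UGU was found in 33.9% of the 127 3′ UTR bins of the 9 genes that were listed in all samples, beside 37.3% of 173556 such bins over all genes and 32.3% of all 20-nt windows of 3′ UTRs.

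GREs were then searched in the 3′ UTRs as 11-nt stretches with at most 2 mismatches to UGUUUGUUUGU or UGUGUGUGUGU on the transcript strand, overlapping matches being counted as 1 element. They were found in 5 of the 9 genes, beside 52.0% of 19283 3′ UTRs of protein-coding genes. CDC6 had 5 elements, whereas MCM2, MCM3, MCM5 and MCM6 had 1 each, and MCM4, MCM7, MCM10 and CDT1 had none. Elements with a single mismatch were present in MCM2, MCM3 and CDC6. They are shown because these genes differed between regions, as described below, together with the CDC6 element that lies within its bin above. Capitals mark the bases that equal the consensus.
MCM2 element: UGUUUGUUUcU
MCM3 element: UGUUUuUUUGU
CDC6 element with 1 mismatch: UuUUUGUUUGU
CDC6 element within the bin: UGUGUGUaUaU

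They lie at chr3:127340769-127340779 (+), chr6:52129025-52129035 (-), chr17:38458593-38458603 (+) and chr17:38458547-38458557 (+), respectively. In the coding regions of the 9 genes no stretch came within 2 mismatches. All 9 genes had more UGU per kb in the 3′ UTR than in the coding region, with values from 15.3 (CDT1) to 30.2 (MCM2) in the 3′ UTR and from 8.53 (CDT1) to 20.7 (MCM6) in the coding region. Of 3′ UTRs within 20% of the length of each gene, 34.9% held a GRE for MCM2, 30.6% for MCM3 and 83.5% for CDC6, but also 61.8% for MCM4 and 71.8% for MCM10, which have none.

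The question of where CELF1 IP reads lie on these mRNAs was addressed by comparing coding region and 3′ UTR of each gene. IP reads of the listed bins of a region were divided by input reads of the same bins, with 1 read added to each and both scaled to the totals of their lists, and are given as log2 IP over input. A region was measured when it held at least 50 IP and input reads together in each sample, which was the case for 8 of the 9 genes in both regions. The 3′ UTR was above the coding region in all 3 samples in 6 of these 8 genes (MCM2, MCM3, MCM4, MCM6, MCM7 and CDC6), beside 56.4% of 4568 measured protein-coding genes. In the test across these 4568 genes, 3 of the 8 passed as higher in the 3′ UTR, namely CDC6, MCM2 and MCM3, beside 42.9% of all genes. None of the 8 passed as lower, beside 6.20% of all genes. The median difference of the 8 genes was 0.33 and that of all genes 0.35, so that as a group they were close to the median of all measured genes.

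CDC6, the ATPase that recruits the helicase to the origin, had the largest difference among the 8 genes. It lies at chr17:38444131-38460909 with 12 exons, 1683 nt of coding region and 2656 nt of 3′ UTR. The coding region had 364, 336 and 508 IP reads against 634, 1387 and 995 input reads, whereas the 3′ UTR had 293, 264 and 436 IP reads against 283, 462 and 381 input reads. Log2 IP over input was therefore -1.17, -2.20 and -1.67 in the coding region and -0.32, -0.96 and -0.50 in the 3′ UTR. Every 3′ UTR value was above every coding value. The difference was 1.08 ± 0.17 (SE, n = 3), a 2.12-fold higher ratio (limma adjusted p = 0.000398). Here and below, the SE of a difference is the moderated value of limma, which also draws on the spread of the other measured genes.

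Within the CDC6 3′ UTR the values were not even. Bins within 100 nt of a GRE had log2 IP over input of 0.65, -0.71 and -0.22, and the remaining bins had -0.94, -1.16 and -0.83. Bins near a GRE were above the others in each sample, by 1.59, 0.45 and 0.61, a description for which no test was made. The bin printed above had 20, 16 and 17 IP reads against 2, 13 and 11 input reads. Its rank by IP reads was 1, 2 and 4 among the 35, 35 and 41 listed 3′ UTR bins, but by input reads it was 27, 11 and 13. Most listed bins lay within 1000 nt of the stop codon. The last 1656 nt held just 8, 8 and 9 of the bins, with 58, 36 and 62 IP reads against 10, 17 and 6 input reads. Leaving out all bins without input reads gave a difference of 1.02, but this kept the bins of that stretch with few input reads.

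MCM2, a helicase subunit whose N-terminal part also binds histones, was the gene with the highest 3′ UTR value in each sample. It lies at chr3:127317253-127341279 with 16 exons, 2715 nt of coding region and 663 nt of 3′ UTR. The 3′ UTR had 1363, 284 and 507 IP reads against 844, 369 and 299 input reads, and the coding region 1155, 153 and 192 IP reads against 1809, 310 and 186 input reads. Log2 IP over input amounted to 0.32, -0.53 and 0.06 in the 3′ UTR and -1.02, -1.17 and -0.65 in the coding region. The 3′ UTR was higher in each sample, by 1.34 in SK-Mel-103 and by 0.64 and 0.71 in UACC-62, and the regions did not overlap. The mean difference was 0.90 ± 0.19 (SE, n = 3), or 1.86-fold (limma adjusted p = 0.00244). The call was lost when IP and input were treated as unpaired groups (limma adjusted p = 0.228).

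The side of 0 on which the MCM2 3′ UTR lies was a matter of scaling. Its mean was -0.05 as scaled here and 0.36 without scaling. It was 0.62 when each sample was centred on the median of all measured regions, with coding regions and 3′ UTRs pooled. The counting interval in SK-Mel-103 (95%, exact binomial) was from 0.19 to 0.44, and covers counting error only. Bins within 100 nt of the MCM2 GRE had values of 0.40, -1.10 and -0.11, and the other 3′ UTR bins 0.27, -0.29 and 0.14. They were thus above the others only in SK-Mel-103, in contrast to CDC6.

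MCM3, another helicase subunit, lies at chr6:52128812-52149679 on the minus strand, with 17 exons, 2427 nt of coding region and 573 nt of 3′ UTR. The coding region had log2 IP over input of -0.997, -1.91 and -1.63 and the 3′ UTR -0.43, -1.10 and -0.93. The 3′ UTR was higher in each sample, although across samples the regions overlapped, with a 3′ UTR value of -1.10 in UACC-62 replicate 1 below the coding value of SK-Mel-103. The difference was 0.69 ± 0.17 (SE, n = 3), or 1.62-fold (limma adjusted p = 0.00548). Without UACC-62 replicate 1 it was 0.64 and no longer passed (limma adjusted p = 0.0534). Next to its GRE the values were -0.52, -1.001 and -0.78, beside -0.36, -1.16 and -1.04 in the remaining 3′ UTR bins, with no common direction.

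**Figure D1:**
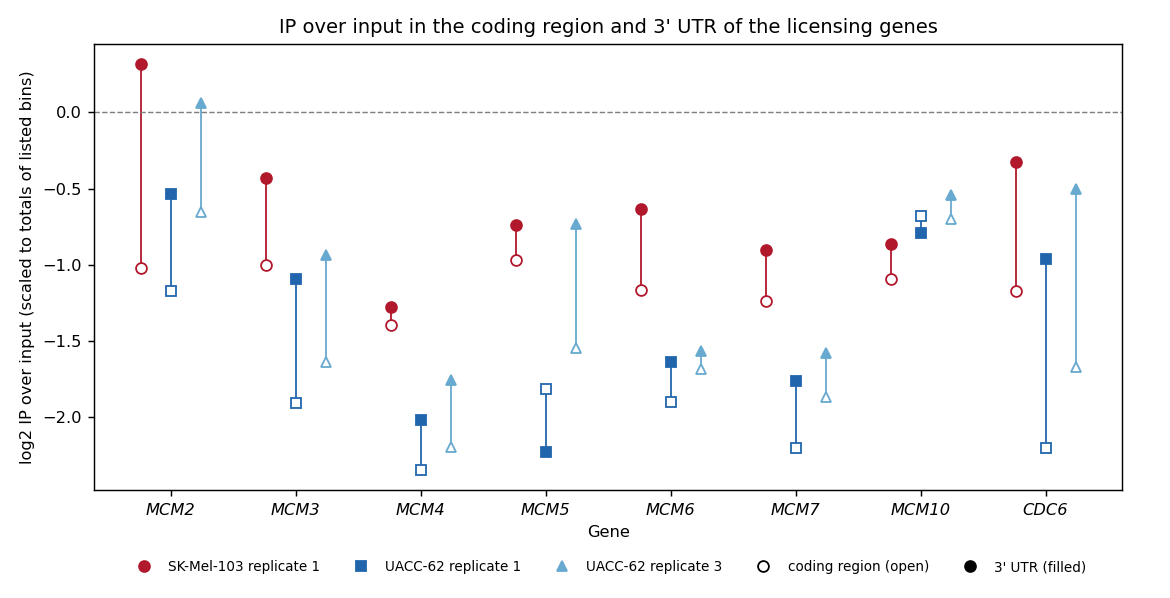
Log2 IP over input (y axis, scaled to the totals of the listed bins) of the 8 measured genes (x axis) in each of the 3 samples, with open symbols for the coding region and filled symbols for the 3′ UTR, joined by a line. The lines of MCM2, MCM3 and CDC6 are long in every sample, whereas MCM5 and MCM10 change direction in UACC-62 replicate 1 and only MCM2 reaches above 0 in its 3′ UTR, at 0.32 and 0.06.

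The other 5 measured genes did not pass the test. MCM7 lies at chr7:99689856-99699563 on the minus strand, with 15 exons, 2160 nt of coding region and a 3′ UTR of only 204 nt. It had -1.24, -2.20 and -1.86 in the coding region and -0.90, -1.76 and -1.58 in the 3′ UTR, with a mean difference of 0.35 ± 0.17 (SE, n = 3, limma adjusted p = 0.103). MCM6 lies at chr2:136597196-136634013 on the minus strand, with 17 exons, 2466 nt of coding region and 1209 nt of 3′ UTR. It had -1.16, -1.90 and -1.68 in the coding region and -0.63, -1.64 and -1.56 in the 3′ UTR, with a mean difference of 0.30 ± 0.17 (limma adjusted p = 0.171). Both helicase subunits were thus above 0 in the difference of every sample without passing the threshold.

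MCM4 lies at chr8:48872745-48890720 with 17 exons, 2592 nt of coding region and 1382 nt of 3′ UTR. Its regions were nearest to each other in SK-Mel-103, at -1.39 in the coding region and -1.27 in the 3′ UTR, while the UACC-62 samples had -2.34 and -2.19 against -2.01 and -1.75. The difference was 0.30 ± 0.17 (limma adjusted p = 0.177). MCM4 had the lowest coding value of the 8 genes in each sample, and its mean stood at percentile 5.70 of the 5421 measured coding regions and 10.6 of the 6153 measured 3′ UTRs.

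MCM5 lies at chr22:35796127-35821424 with 17 exons, 2205 nt of coding region and 1176 nt of 3′ UTR. It had -0.97, -1.81 and -1.55 in the coding region and -0.74, -2.23 and -0.73 in the 3′ UTR. The UACC-62 replicates stood far apart in its 3′ UTR, at a mean of -1.48 ± 1.06 (SD, n = 2), with 6, 2 and 4 listed bins. The difference of 0.21 ± 0.22 (limma adjusted p = 0.458) was therefore poorly determined, and had the opposite sign in UACC-62 replicate 1. MCM10 lies at chr10:13203558-13253110 with 20 exons, 2625 nt of coding region and 1800 nt of 3′ UTR. It had -1.09, -0.68 and -0.70 in the coding region and -0.86, -0.79 and -0.54 in the 3′ UTR, with a difference of 0.09 ± 0.17 (limma adjusted p = 0.683).

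CDT1, which loads the helicase together with CDC6, could not be measured. It lies at chr16:88870197-88875666 with 10 exons, 1641 nt of coding region and 980 nt of 3′ UTR. Its coding region had 8, 3 and 1 listed bins with 39, 13 and 4 IP reads, and its 3′ UTR had 6, 4 and 1 bins with 39, 19 and 7 IP reads. Input reads were 31, 12 and 0 in the coding region and 55, 28 and 22 in the 3′ UTR. No bin of CDT1 was common to the 3 samples, and a direction could not be read at this depth.

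The 3 genes that passed the test were the same 3 whose 3′ UTR holds a GRE with at most 1 mismatch. Both MCM5 and MCM6, with a GRE of 2 mismatches, and MCM4, MCM7 and MCM10, without a GRE, did not pass. Over all 4568 genes, 68.6% of 1300 genes with a GRE of at most 1 mismatch, 44.2% of 1859 genes with 2 mismatches and 17.5% of 1409 genes without a GRE were higher in the 3′ UTR. The median difference in these classes was 0.81, 0.39 and 0.01. The 3′ UTR length moved with the classes, with medians of 3155, 1983 and 553 nt. Among genes with 3′ UTRs from 459 to 795 nt, a range around the lengths of MCM2 and MCM3, the shares were 57.4% of 54, 34.2% of 155 and 14.5% of 304 genes. The members of each class are few, and the classes by mismatch were set after the values had been seen. The part of the GREs in their values was not tested.

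**Figure D2:**
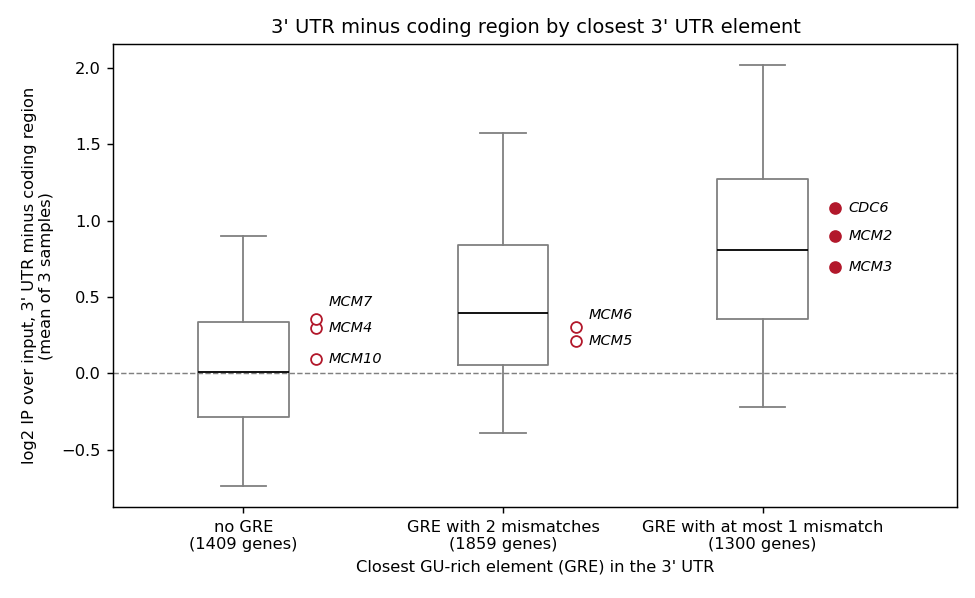
Difference of log2 IP over input between 3′ UTR and coding region (y axis, mean of 3 samples) by the closest GRE in the 3′ UTR (x axis), with boxes for the quartiles and median of all measured genes and whiskers for percentiles 5 and 95. Filled points are genes past the limma threshold (CDC6 at 1.08, MCM2 at 0.90 and MCM3 at 0.69) and open points are the other 5 measured genes, from 0.09 to 0.35.

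Neither region of these mRNAs was generally rich in IP reads. In the coding region all 8 measured genes were below 0 in every sample, beside 71.8% of 5421 genes, and none was above 0 in every sample, beside 9.72%. In the 3′ UTR 7 of 8 were below 0 in every sample, beside 52.0% of 6153 genes, and none was above 0 in every sample, beside 30.4%. The medians of the 8 genes in the coding region were -1.13, -1.90 and -1.65, and those of all measured genes were -0.66, -1.13 and -0.87. In the 3′ UTR they were -0.69, -1.37 and -0.83 against -0.17, -0.66 and -0.40. The medians of the 8 genes were thus below those of all genes in both regions and in each sample, whereas the 3′ UTR of MCM2 was above the median of all genes in each sample and the coding region of MCM10 in both UACC-62 samples. The MCM10 values there rest on few reads, as given below. All measured genes were taken without matching for input level, and the part of input in this comparison was not tested. When each sample was centred on the pooled median of all measured coding regions and 3′ UTRs, MCM2 was above 0 in its 3′ UTR in all samples.

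The subunits were ordered by the mean of the UACC-62 replicates, the only group with replicates. In the coding region MCM10 (-0.69 ± 0.01, SD, n = 2) and MCM2 (-0.91 ± 0.37) were highest and their values overlapped. They were followed by MCM5 (-1.68 ± 0.19), MCM3 (-1.77 ± 0.19), MCM6 (-1.79 ± 0.15), CDC6 (-1.93 ± 0.38), MCM7 (-2.03 ± 0.24) and MCM4 (-2.27 ± 0.11). The step from MCM2 to MCM5 was free of overlap, whereas neighbours further down overlapped. In the 3′ UTR the order was MCM2 (-0.24 ± 0.42), MCM10 (-0.67 ± 0.18), CDC6 (-0.73 ± 0.32), MCM3 (-1.01 ± 0.12), MCM5 (-1.48 ± 1.06), MCM6 (-1.60 ± 0.05), MCM7 (-1.67 ± 0.13) and MCM4 (-1.88 ± 0.18). MCM2 and MCM10 were barely separated there, with -0.53 as the lower value of MCM2 and -0.54 as the higher value of MCM10, and all other neighbours overlapped.

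Both genes at the top of the coding order also had the least input in UACC-62 among the 8 measured genes. Input reads, per kb of coding region and per 1000000 input reads of the list, were 78.8 in SK-Mel-103 but 11.2 and 7.70 in UACC-62 for MCM2, and 30.2 but 1.69 and 2.27 for MCM10. Bins were listed for 68.4% of the MCM2 coding region in SK-Mel-103 and for 19.1% and 22.8% in UACC-62, and for 42.3%, 4.62% and 7.69% of that of MCM10. The other subunits and CDC6 stood closer together in the 2 lines. MCM7 was the richest, with 132, 136 and 102, followed by MCM4 with 86.2, 98.6 and 72.5, and CDC6 had 44.6, 81.1 and 66.4. MCM3, MCM5 and MCM6 were between 29.3 and 52.5 in all samples, and CDT1 was at 2.23, 0.72 and 0. SK-Mel-103 had no replicate, so the difference between lines was not tested, and fewer cells with the mRNA and less of it per cell cannot be told apart. Input is known only in listed bins, so that unlisted stretches count as 0. MCM7 and MCM4, with the most input, stood lowest in the coding order. A bin also needed at least 4 IP reads to be listed. The part of this minimum in the ratios of regions with little input was not tested.

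**Figure D3:**
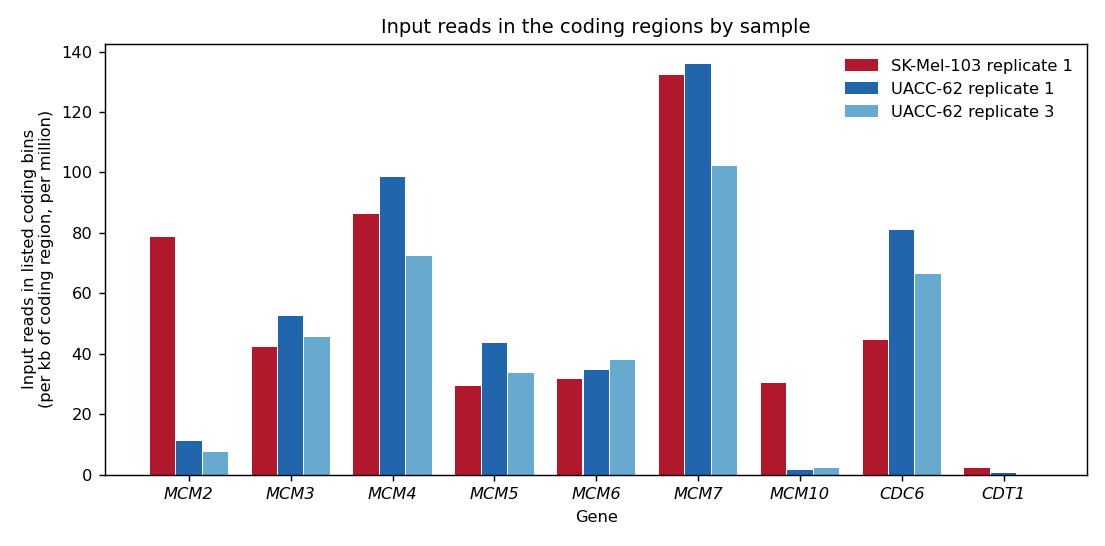
Input reads in listed coding bins per kb of coding region and per 1000000 input reads of the list (y axis) for the 9 genes (x axis), with 1 bar per sample. MCM2 (78.8 against 11.2 and 7.70) and MCM10 (30.2 against 1.69 and 2.27) have a tall bar in SK-Mel-103 and short bars in UACC-62.

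The cell lines also differed in IP over input. SK-Mel-103 was above both UACC-62 samples in the coding region of MCM3, MCM4, MCM5, MCM6, MCM7 and CDC6, by 0.63 to 0.88 over their mean, and below both in that of MCM10, by 0.40. The medians of all genes, given above, were also higher in SK-Mel-103. MCM2 lay between the UACC-62 replicates in its coding region. Its 3′ UTR was above both in SK-Mel-103, by 0.55 over their mean. With 1 sample of SK-Mel-103 these differences between the lines were not tested. For MCM10 the UACC-62 values also rest on few reads, as given above.

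Along the coding region, cut into 3 parts of equal length, no common slope was seen. The 3′ part was above the 5′ part in every sample in MCM3 (by 0.43, 0.50 and 0.61), MCM7 (by 0.26, 0.15 and 0.24) and CDC6 (by 0.49, 0.01 and 0.03). MCM2, MCM4, MCM5 and MCM6 changed sign between samples, and MCM10 and CDT1 held too few reads. The 3′ UTR was above the adjacent 3′ part of the coding region in every sample in MCM2, MCM3, MCM4, MCM6, MCM7 and CDC6. In CDC6 this step was 0.54, 1.27 and 1.23, in MCM2 1.12, 0.94 and 0.57, and in MCM3 0.46, 0.51 and 0.45.

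Listed bins did not cover the 3′ UTRs evenly. MCM2 and MCM3 were listed nearly throughout, with 93.9%, 69.7% and 81.8% of the possible 3′ UTR bins in MCM2 and 92.9%, 96.4% and 96.4% in MCM3. MCM6, by contrast, had 17, 13 and 18 bins in the first 500 nt and just 3, 1 and 3 in the remaining 709 nt, where its GRE lies. MCM5 had 5, 2 and 4 bins in the first 500 nt, and a single bin beyond, in SK-Mel-103. MCM4 was listed up to 1332 nt after the stop codon in all samples.

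**Figure D4:**
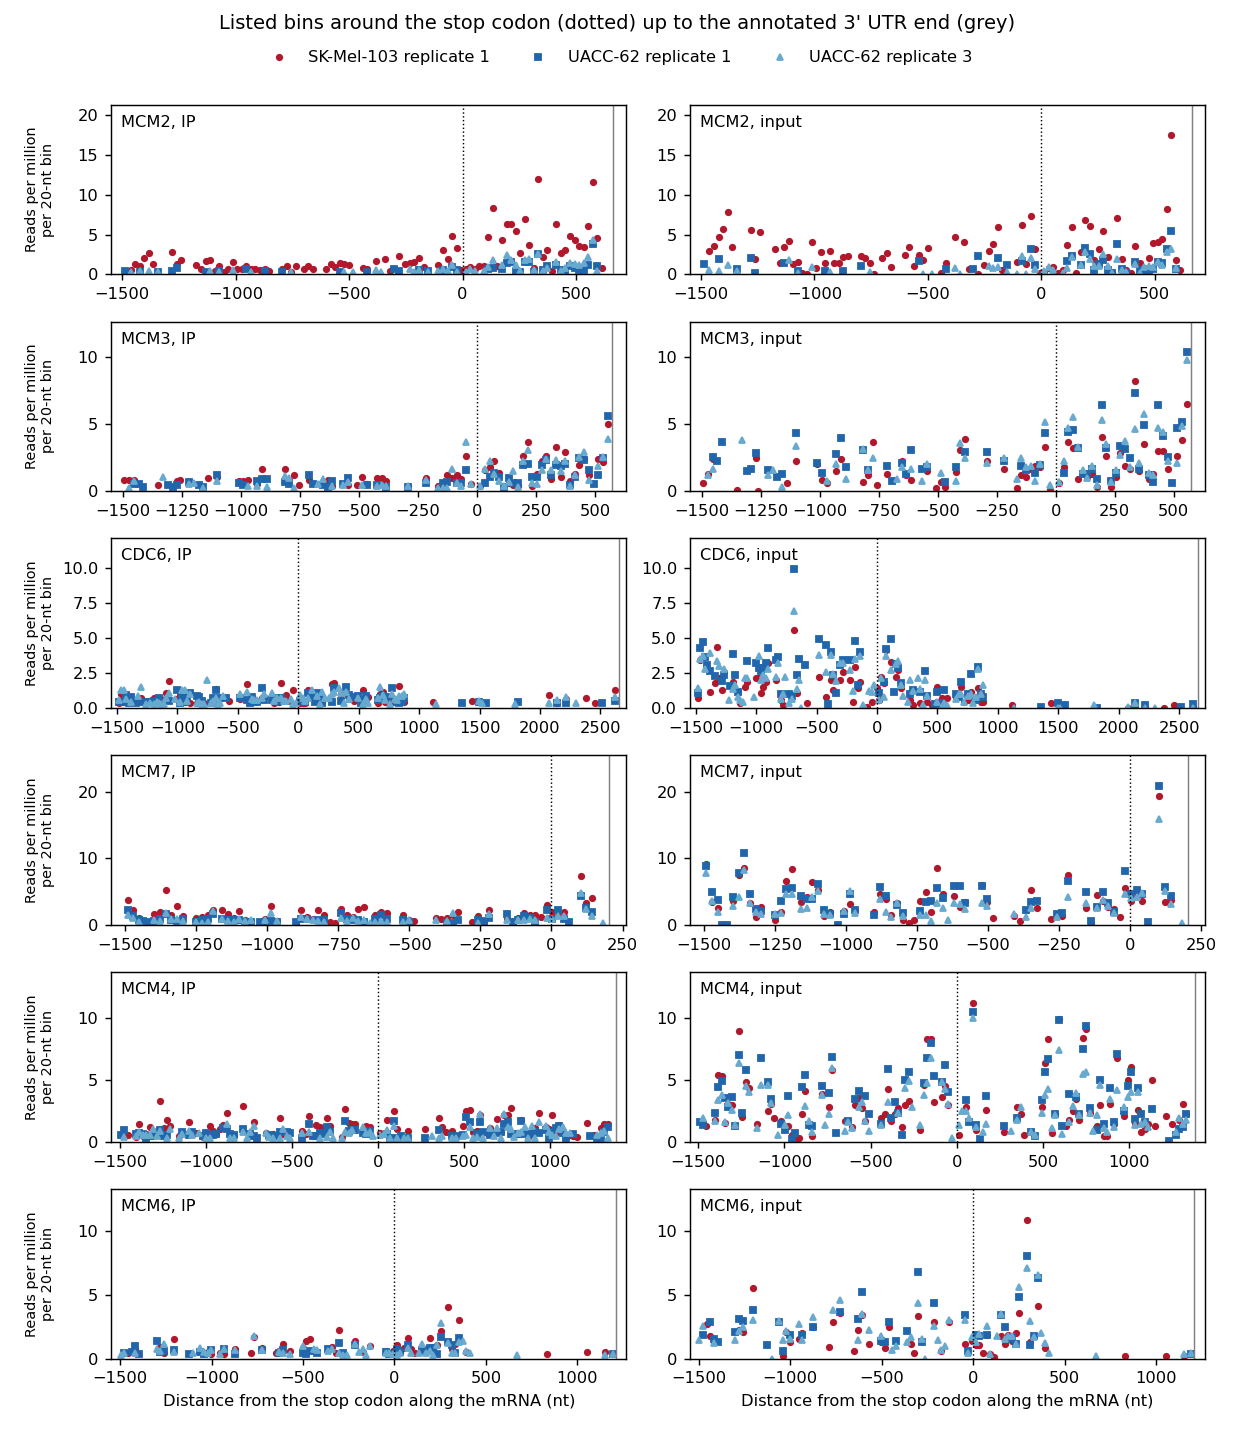
Reads per 1000000 reads of the list in each listed 20-nt bin (y axes, IP on the left and input on the right, same range) against the distance from the stop codon (x axis) for 6 genes, with 1 symbol per sample, a dotted line at the stop codon and a grey line at the annotated end. MCM6 is nearly empty beyond 500 nt and CDC6 beyond 1000 nt, and the highest IP bins of MCM3 and MCM7 coincide with bins of high input.

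Peaks as the authors filter them, with more than 30 IP reads in each of the 3 samples, were found in 3′ UTR bins of 3 genes (MCM2, MCM3 and MCM7), with 1 bin each. This is beside 13.4% of 11944 genes with a listed 3′ UTR bin. No coding bin of the 9 genes met the filter, beside 4.997% of 11547 genes. The MCM2 bin had 127, 44 and 63 IP reads against 148, 55 and 28 input reads, the MCM3 bin 55, 63 and 56 against 55, 105 and 87, and the MCM7 bin 80, 49 and 70 against 163, 212 and 141. Input was the highest or second highest of the 3′ UTR in all of these bins and samples. Log2 IP over input of the MCM7 bin was -1.39, -2.25 and -1.70, that of the MCM3 bin -0.37, -0.89 and -1.32, and that of the MCM2 bin -0.59, -0.47 and 0.44. These common peaks were therefore bins rich in both IP and input reads, and 1 of 9 values was above 0. Without any single sample the same 3 genes remained.

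Of the wider replication machinery, a list of 40 genes of origin recognition, helicase activation and DNA synthesis was compared in the same way. Both regions were measured in 23, of which 12 were above the coding region in the 3′ UTR in all samples, 4 passed the test as higher and none as lower, beside the shares of all genes given above. The median difference of these genes was 0.26. ORC4, a subunit of the origin recognition complex, had the largest difference (2.49 ± 0.31, SE, n = 3, limma adjusted p = 7.07e-05), with 0.18, 1.30 and 1.39 in the 3′ UTR and -1.10, -1.65 and -1.85 in the coding region. GINS1, a subunit of the active helicase, followed with 1.57 ± 0.24 (limma adjusted p = 0.000259) and was above 0 in both regions in every sample. WDHD1 had 0.74 ± 0.21 (limma adjusted p = 0.0119). At the lower end, FEN1, the flap endonuclease, had -0.34, RFC4, a clamp loader subunit, -0.31, and RPA2, a subunit of the single-strand binding protein, -0.26, none of which passed.

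The origin recognition complex, which marks the sites where the MCM ring is loaded, was represented by ORC1 to ORC6. Both regions were measured in 4 of the 6 genes (ORC2, ORC4, ORC5 and ORC6). The 3′ UTR was above the coding region in all samples in 2 of them, ORC4 and ORC6, and ORC4 was the only gene to pass the test. CDC6, with 1.08, thus stood between ORC4 and the remaining loading factors that were measured.

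The 5 genes whose 6 values, from both regions in 3 samples, were closest to the medians of the 8 measured genes were ME2, SUZ12, SDHA, THOP1 and DCTN5, at a root mean square difference of 0.08 to 0.11 on the log2 scale. Among the 8 genes MCM3 was closest to these medians (0.17) and MCM2 farthest (0.82).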

How the data were processed

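RIP-Seq of CELF1 was analysed in 3 IP samples of 2 melanoma cell lines, each against its own input, and groups were taken from the sample titles. The authors aligned reads to GRCh37 with TopHat and Bowtie (TopHat2 2.0.4 and Bowtie 0.12.7 per the submitters' processing notes, whereas the methods name other versions), and passed 20-bp bins to Piranha, the input serving as its covariate. The deposited counts are whole IP reads per passing bin, without normalization and not pooled. The deposited p-value of each bin is not stated to be corrected. The deposited ratio is the covariate, which holds input reads as whole multiples of its smallest step (tolerance 0.05 steps), with 0.01 for no input, so that 9.69%, 15.9% and 29.2% of bins had none. Because only passing bins are listed (at least 4 IP reads), values are conditional on passing, and input elsewhere is unknown.

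Bins were placed by their centre in the representative transcript of GENCODE (version 44, mapped to GRCh37), on the reverse of the listed strand. Differences between regions, in which the scaling cancels, were tested against 0 with limma 3.58.1 (R 4.3.3) over 4568 genes with Benjamini-Hochberg adjustment at 0.05. A pseudocount of 1 read was used. Nothing states that the replicates came from separate cultures. The p-values and SEs of the differences use variances that limma moderates across all 4568 genes. They cover no more than these 3 samples of 2 cell lines. On simulated data 100% of 200 changed genes and 0.11% of the others were called. The first share holds only for the size of change that was simulated, which was larger than the difference of any measured MCM gene or CDC6. The second share holds only for the simulated spread, set alike for all genes, and is no rate of false calls for these data. The power to call smaller differences was not tested, so the simulation says nothing about genes that did not pass. The precision of single ratios follows from the read counts given, and intervals cover counting error only, since reads carried no molecular identifiers.

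The genes, lists and comparisons were chosen with earlier results of these data known. The search for GREs and its classes by mismatch were added after the values had been seen. All 9 genes are named, and of the replication list the 3 highest, the 3 lowest and the origin recognition complex. The marker lists for keratinocytes, endothelium and blood had at most 1 gene with a listed bin each. Alternatives covered bins, pseudocount, transcripts, strand, minimum of reads, read filter, scaling, cell line, pairing and leaving out each sample. Scripts ran in Python 3.11.15 with matplotlib 3.10.9, scipy 1.17.1, pandas 2.3.3 and numpy 2.4.6.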

Additional observations from a re-analysis of the deposited data

How the results depend on the processing

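The 3 genes past the limma threshold (MCM2, MCM3 and CDC6) passed under every alternative of pseudocount, transcript choice, minimum of reads, cell line term, p-value of 0.01, bins with input and bins common to all samples. With no replicate block, that is with IP and input of a sample not paired, 2 members passed, MCM2 being lost, and 1106 of the 4568 genes in place of 1959. Leaving out 1 sample gave 2 to 3 members past the threshold (MCM3 was lost without UACC-62 replicate 1), 6 to 8 with the 3′ UTR above the coding region in all samples, 13 to 14 such genes of the replication list, 0 to 1 member with its 3′ UTR above 0 (MCM2, without UACC-62 replicate 1), 0 with a coding region above 0, 3 with a common 3′ UTR bin and 0 with a common coding bin. With only bins of more than 30 IP reads no member could be measured in both regions, so that 0 were higher and 0 passed. The 3′ UTR alone was measured in MCM2 (-0.02), MCM3 (-0.77) and MCM7 (-1.54). Under this setting 269 of 532 genes were past the threshold, and 1 gene of the replication list was higher. With the listed strand read as the transcript strand, 0 members were measured, 0 were higher or passed, as did 0 of 11 genes measured in all, 0 genes of the replication list were higher and 0 members had a common 3′ UTR bin. Common bins of more than 10 IP reads were found in 7 members in the 3′ UTR and 6 in the coding region, of any listed bin in 8 and 8, and of more than 100 IP reads in 0. Centring on the median of all genes raised values by 0.67, put 1 member (MCM2) above 0 in its 3′ UTR and turned the mean of CDC6 there from -0.60 to 0.0748. Scaling to exon bins raised them by 0.18 and no scaling by 0.41. Of the values for single genes, 235 moved by less than the replicate spread or kept their call and 62 moved by more. Few reads limit MCM5, MCM10 and CDT1.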
